A study of Mus musculus with 4 samples.

Results

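Respiratory complex I is built in part from subunits encoded in the nucleus, and their genes carry symbols that begin with Nduf. The genes described here are those whose symbol in the files is Nduf followed by a, b, c, s, v or ab and a number, so that assembly factors (Ndufaf) are left out. They are 37 of the 23284 gene symbols in the files, and none of the 37 had more than 1 entry. The cells were CD4 T cells, the helper lineage, from the spleen of BALB/c mice, an inbred strain, and all of them had been stimulated in Th1 culture with interleukin-2 (15 ng/ml) and interleukin-12 (10 ng/ml), which drives production of interferon-gamma. The labels give the culture as 4 days in one field and 5 in another. From that culture a CCR7hiCD137lo and a CCR7loCD137hi population were sorted, and polyadenylated RNA was profiled in 2 libraries of each, numbered 1 and 2. CCR7, a chemokine receptor, directs lymphocytes toward lymph nodes, and CD137 (4-1BB) gives costimulation to T cells after activation. Nothing in the labels says whether the libraries of a population came from separate mice or cultures, so the p-values speak only of the spread among these libraries, and that spread may be technical.

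Complex I, NADH:ubiquinone oxidoreductase, is the entry point of the mitochondrial respiratory chain. It takes electrons from NADH, passes them along iron-sulfur clusters to ubiquinone and pumps protons across the inner membrane. Its core subunits, conserved from bacteria, do the chemistry; those encoded in the nucleus form the N module, which oxidises NADH, and the Q module, which reduces ubiquinone. Core subunits of the membrane arm are encoded in mitochondrial DNA and were not analysed here. Accessory subunits surround the core and are needed for assembly and stability. In T cells, activation raises mitochondrial mass and respiration, and memory cells are known for their reliance on oxidative metabolism.

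Expression was measured as FPKM, fragments per kilobase of transcript, scaled to the number of fragments mapped. Depth was not stated and was estimated from the steps between low values, as 0.631, 0.565 and 0.307 of that of CCR7hiCD137lo library 1 in CCR7hiCD137lo library 2 and CCR7loCD137hi libraries 1 and 2. The genes of the sorting markers followed the labels. Ccr7 stood at 93.4 and 118.4 FPKM in CCR7hiCD137lo libraries 1 and 2, against 39.6 and 38.2 FPKM in CCR7loCD137hi libraries 1 and 2. For Tnfrsf9, the gene of CD137, the values were 0.961 and 6.25 FPKM in the first population and 158.2 and 183.8 FPKM in the second. The 7 markers of T cells summed to between 1476 and 1777 FPKM in every library. Those of CD8 T and NK cells (6 genes) summed to 12.1 and 21.8 FPKM in CCR7hiCD137lo and to 42.4 and 33.8 FPKM in CCR7loCD137hi. Most of each sum was Eomes, at 9.42 and 17.2 FPKM in the first population and 26.5 and 28.5 FPKM in the second. Cd8b1 overlapped between them, at 2.63 and 4.56 FPKM against 8.48 and 3.78 FPKM. Cd8a, Ncr1, Klrb1c and Klre1 were higher in both CCR7loCD137hi libraries, at no more than 3.68 FPKM. In CCR7loCD137hi library 2, Cd8a, Ncr1 and Klrb1c were at 0.218, 0.251 and 0.130 FPKM. There 3 fragments on a transcript of 1 kb would give 0.474 FPKM, so these values are near the floor. The 5 B cell markers summed to 0.0917 and 0.145 FPKM in the first population and to 4.86 and 0.529 FPKM in the second. Markers of myeloid cells (8 genes, 3 at 0 throughout) and of erythroid cells and platelets (6 genes, 3 at 0 throughout) summed to between 0.0648 and 1.56 FPKM. The sums of the 4 lists other than T cells were higher in both CCR7loCD137hi libraries than in both others, and their part in the results was not tested. In bulk libraries such as these, fewer cells of a type and less RNA per cell cannot be told apart.

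The promoters were searched for letters bound by factors known to act on respiratory genes, because the genes encode parts of 1 complex. RefSeq promoters (GRCm38.p6, 250 bases before to 50 after the start, either strand) were found for 33 of the 37 genes, 35 promoters in all. The letters AAGATGGC, the core of the motif of YY1, a zinc finger factor, stood in 7 of the 35 (20%), against 2.75% of all 32851 promoters in the table. In all 7 they lay in the first 50 bases after the start, which 0.865% of all promoters share, and the ATG inside them is the annotated start codon. The 7 windows of 30 bases are shown because they place the motif and the first codon on the same letters, with capitals marking AAGATGGC.
Ndufc1, chr3:51408915-51408944, minus strand: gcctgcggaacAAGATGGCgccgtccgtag
Ndufa9, chr6:126849097-126849126, minus strand: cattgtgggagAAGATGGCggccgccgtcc
Ndufa3, chr7:3617384-3617413, plus strand: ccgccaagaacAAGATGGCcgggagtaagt
Ndufs7, chr10:80249462-80249491, plus strand: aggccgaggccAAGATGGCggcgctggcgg
Ndufs6, chr13:73328433-73328462, minus strand: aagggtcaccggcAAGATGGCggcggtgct
Ndufs4, chr13:114388045-114388074, minus strand: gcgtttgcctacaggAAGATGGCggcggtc
Ndufb8, chr19:44555393-44555422, minus strand: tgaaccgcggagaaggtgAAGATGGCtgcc

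Other letters searched were closer to their share among all promoters or rested on few genes. The NRF1 core GCGCATGC stood in 3 of 35 promoters (8.57%, all promoters 2.71%) and the NRF1 palindrome, which contains that core, in 1 (2.86%, all 0.971%). The ETS letters CCGGAAG, which GABPA binds, stood in 4 (11.4%, all 8.86%), and the ERR letters AAGGTCA in 3 (8.57%, all 4.72%). GGGCGG, the GC box, stood in 16 (45.7%, all 35.7%), CCAAT in 10 (28.6%, all 37.4%) and TATAAA in 5 (14.3%, all 13.6%). The median GC content was 59.0% in the promoters of these genes and 52.7% in all promoters. A match of letters is a description and shows no binding.

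Of the 37 genes, 36 reached a mean of 1 FPKM over the 4 libraries and were tested. The exception was Ndufs5, a small accessory subunit of the membrane arm (mm10 chromosome 4, 123712710 to 123718186, minus strand). The files list it at 0.000527 and 0.00111 FPKM in CCR7hiCD137lo libraries 1 and 2, against 0.000487 and 0.00784 FPKM in CCR7loCD137hi libraries 1 and 2. A second entry lies on the same locus, from 123712710 to 123718161, sharing 5452 bases of span, under the symbol BC002163. It stood at 72.2 and 68.8 FPKM in CCR7hiCD137lo, against 70.7 and 58.0 FPKM in CCR7loCD137hi. Another entry of that symbol, on chromosome 16 from 42955580 to 42956079, stood at 63.2, 68.7, 72.1 and 63.4 FPKM in the same order. BC002163 is annotated by GENCODE as a processed pseudogene, and over 319 bases of alignment it is 99.4% identical to Ndufs5. The first 120 coding bases of Ndufs5 and the matching bases of the copy (GENCODE vM21 transcripts) are shown because they hold both differences, T81C and A105G, counted from the A of the start codon with the base of Ndufs5 first and in capitals.
Ndufs5: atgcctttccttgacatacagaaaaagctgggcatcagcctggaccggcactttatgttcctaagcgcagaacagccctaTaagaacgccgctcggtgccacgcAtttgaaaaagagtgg
BC002163: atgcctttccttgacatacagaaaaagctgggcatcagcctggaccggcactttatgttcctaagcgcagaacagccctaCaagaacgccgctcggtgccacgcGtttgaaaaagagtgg

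The level of Ndufs5 therefore could not be read from its own entry, and reads of the gene and of its copy cannot be told apart in these files. As an alternative chosen after seeing the data, the entry at its locus was read in its place, which let all 37 genes be tested. In all, 7 members have a processed pseudogene at least 95% identical to them over at least 200 bases (Ndufa12, Ndufab1, Ndufb11, Ndufb3, Ndufb4, Ndufs3 and Ndufs5), and their levels carry that uncertainty. Exons of 14 members overlap exons of a gene on the opposite strand, by 4 to 616 bases. Whether strand was used in counting is not given in the sources used here. Exons of Ndufb2, Ndufb8 and Ndufb9 overlap those of a gene on the same strand, by 145, 134 and 201 bases. Use of strand could not separate these.

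The complex I genes tested were expressed above most genes of these cells. The median member had a mean of 80.2 FPKM, against 12.3 FPKM for the median of the 10496 genes tested, and stood at percentile 91.2 of them. Of the 36, 30 lay above 50 FPKM and 27 between 50 and 170 FPKM. Most subunits thus lay within that range of levels per length, with other members outside it. The share of all genes in the range was not counted. The highest was Ndufv3, an accessory subunit of the NADH-oxidising module, with a mean of 396.8 FPKM. Ndufa3, a small subunit of the proximal membrane arm, followed at 360.7 FPKM, and Ndufa4 at 261.0 FPKM. The lowest of those tested were Ndufa11 at 12.9 FPKM, Ndufs4 at 32.6 FPKM and Ndufb4 at 32.8 FPKM. Across the 36 genes, Spearman's rho between transcript length (315 to 2661 bases) and mean FPKM was -0.55, a description only, since FPKM itself divides by length.

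**Figure D1:**
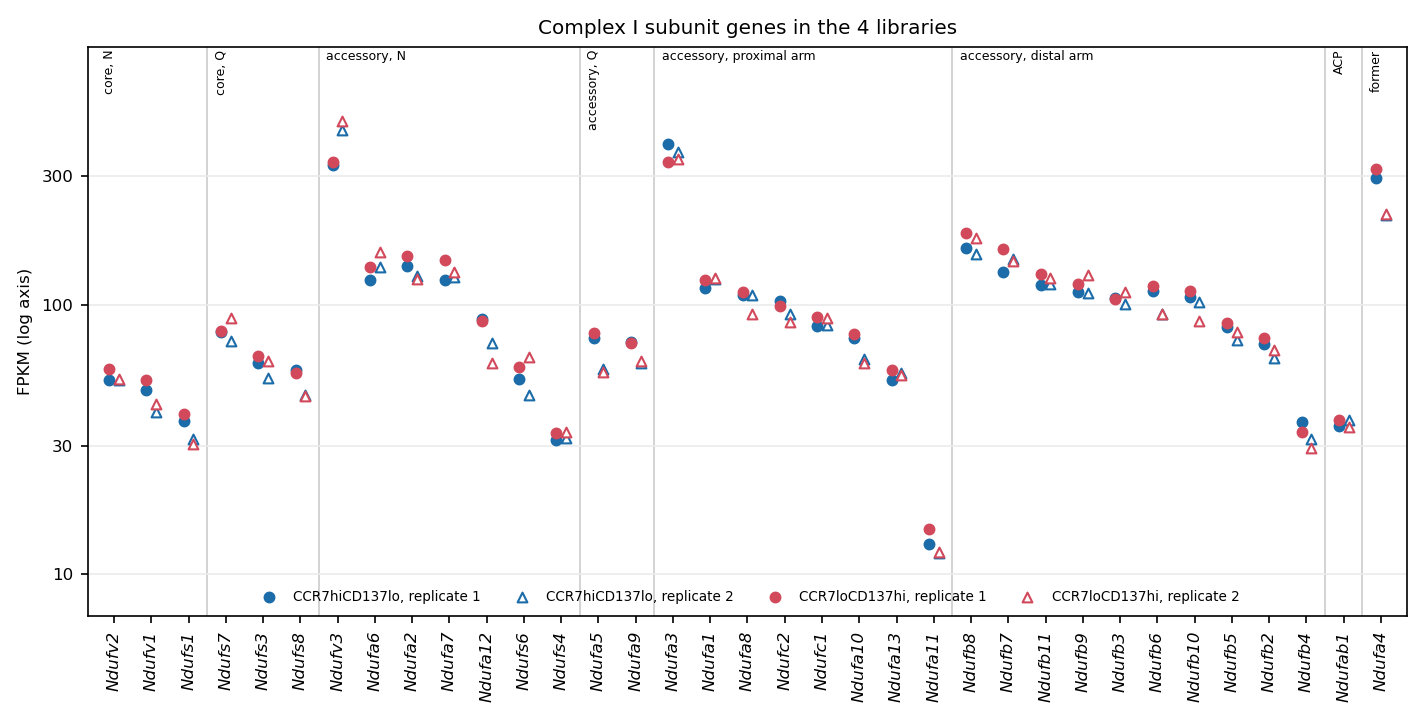
FPKM on a log axis for 35 of the 36 complex I genes tested, grouped by module and ordered by mean within each; colour shows the population, filled circles replicate 1 and open triangles replicate 2. Most genes lie between 50 and 170 FPKM, Ndufv3, Ndufa3 and Ndufa4 lie above, and for Ndufv3 and Ndufa4 the replicate numbers are farther apart than the populations.

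Summed over all 37 genes, FPKM was 3756 and 3623 in CCR7hiCD137lo libraries 1 and 2 and 3929 and 3723 in CCR7loCD137hi libraries 1 and 2. The CCR7loCD137hi sum was 4.62% higher within number 1 and 2.77% higher within number 2. As a share of all FPKM in a library the sums were 0.823%, 0.768%, 0.835% and 0.775% in the same order, so the libraries numbered 1 were the higher pair on that scale. Without short RNA genes, which held 14.9% to 18.2% of FPKM, the shares were 0.984%, 0.918%, 0.969% and 0.924%, and within number 1 CCR7loCD137hi was then the lower.

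No complex I gene was called between the populations. The test was limma on log2(FPKM + 1), a linear model that borrows spread across genes, with Benjamini-Hochberg adjustment over all genes and a threshold of 0.05. Of the 36 genes 0 passed, where 0.0572% of all genes tested (6 of 10496) did, and 0 had an unadjusted p under 0.05, where 8.13% of all genes had. The lowest adjusted p was 0.680, for Ndufs6. All 36 intervals (95%) of the log2 difference included 0; the lowest bound was -0.73 and the highest 0.76. For 25 of the genes the interval lay within 0.5 either way, and for all 36 within 1. The median member differed by 0.07, CCR7loCD137hi minus CCR7hiCD137lo, with 26 above 0 and 10 below. Of all genes tested 47.9% were above 0, and their median was -0.01. After quantile normalization the median was 0.04, with 23 above 0 and 13 below. All genes then had a median of -0.04, with 43.07% above 0. Leaving out 1 library at a time moved the complex I median of 0.07 to 0.12 without CCR7hiCD137lo replicate 1, 0.03 without CCR7hiCD137lo replicate 2, 0.00 without CCR7loCD137hi replicate 1 and 0.12 without CCR7loCD137hi replicate 2. In the same order, 27, 19, 18 and 33 genes were above 0 and 9, 17, 18 and 3 below.

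Libraries of the populations did not overlap for 11 of the 36. In 10 both CCR7loCD137hi libraries were the higher (all genes 16.6%): Ndufv2, Ndufs3 and Ndufs7 of the core, Ndufs4, Ndufs6 and Ndufa7 of the N module, Ndufc1 of the proximal arm, and Ndufb8, Ndufb9 and Ndufb11 of the distal arm. In 1, Ndufa3, both were the lower (all genes 21.5%). With the BC002163 entry read for Ndufs5 these counts stayed at 10 and 1 of 37.

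**Figure D2:**
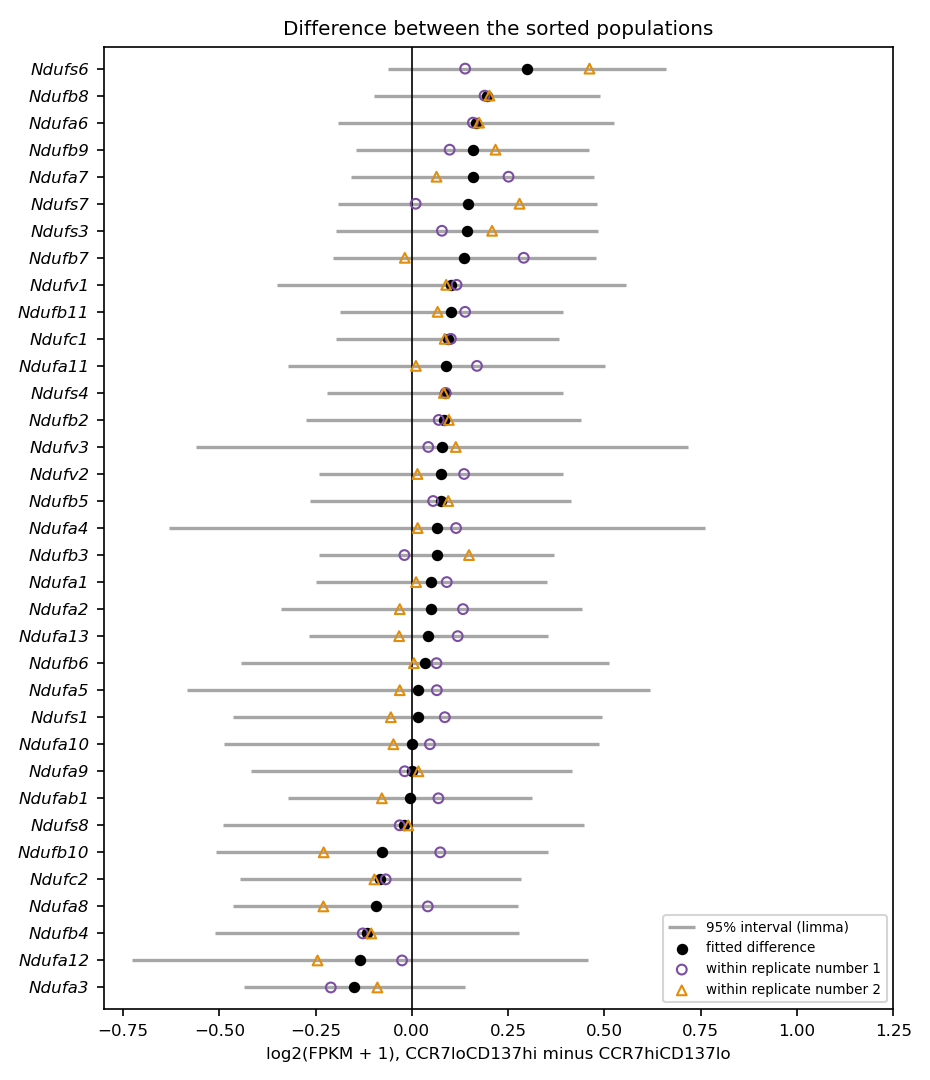
Difference between the populations for 35 of the 36 genes on the log2(FPKM + 1) scale, CCR7loCD137hi minus CCR7hiCD137lo: black points are fitted values, grey bars their 95% intervals, purple circles and orange triangles the differences within replicate numbers 1 and 2. Every interval shown crosses 0, and Ndufs6 at 0.30 and Ndufa3 at -0.15 are the ends of the range.

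The 7 core subunits encoded in the nucleus had a median difference of 0.10, with 6 above 0. Where 2 pairs of values follow without names, the first is CCR7hiCD137lo libraries 1 and 2 and the second CCR7loCD137hi libraries 1 and 2. Ndufv1 carries the flavin that accepts electrons from NADH. It stood at 48.2 and 40.1 FPKM in CCR7hiCD137lo libraries 1 and 2, against 52.3 and 42.7 FPKM in CCR7loCD137hi libraries 1 and 2, a difference of 0.10 (SE 0.17, adjusted p = 0.904). The libraries numbered 1 were the higher in both populations. Ndufv2, which holds an iron-sulfur cluster beside it, stood at 52.6 and 52.4 FPKM and at 57.9 and 52.9 FPKM, a difference of 0.07 (SE 0.12). Ndufs1, the largest subunit of the peripheral arm, stood at 37.1 and 31.7 FPKM and at 39.4 and 30.5 FPKM, with overlapping populations and a difference of 0.02 (SE 0.18).

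In the Q module Ndufs7, which holds the last cluster before ubiquinone, stood at 79.2 and 73.2 FPKM in CCR7hiCD137lo, against 79.7 and 89.0 FPKM in CCR7loCD137hi. Its difference of 0.14 (SE 0.13, adjusted p = 0.813) came mostly from number 2, 0.28 against 0.01 in number 1. Ndufs3 stood at 60.8 and 53.4 FPKM and at 64.2 and 61.8 FPKM, 0.14 higher in CCR7loCD137hi (SE 0.13). Ndufs8, a carrier of iron-sulfur clusters, was the core gene below 0, at -0.02 (SE 0.18), with 57.1 and 46.1 FPKM and 55.8 and 45.8 FPKM.

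The accessory subunits of the N module held the largest difference of the list. Ndufs6, a zinc-binding subunit added late in assembly, stood at 53.0 and 46.1 FPKM in CCR7hiCD137lo, against 58.4 and 63.8 FPKM in CCR7loCD137hi. Both CCR7loCD137hi libraries were above both others, and the difference was 0.30 (SE 0.14, 95% interval -0.06 to 0.66, unadjusted p = 0.0843). It was 0.14 within number 1 and 0.46 within number 2. Its exons share 30 bases with those of Mrpl36 on the other strand. Ndufa6, which binds an acyl carrier protein, stood at 122.8 and 138.2 FPKM and at 137.2 and 156.1 FPKM, 0.17 higher (SE 0.14), 0.16 and 0.17 within the numbers. Its libraries numbered 2 were the higher in each population, and leaving out 1 library moved the difference between 0.07 and 0.26.

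Other N module genes were closer to 0 or moved with the number. Ndufa7 stood at 122.8 and 125.9 FPKM in CCR7hiCD137lo, against 146.3 and 131.7 FPKM in CCR7loCD137hi, a difference of 0.16 (SE 0.12). Ndufs4, which stabilises the module, stood at 31.3 and 31.9 FPKM and at 33.4 and 33.8 FPKM, a difference of 0.09 (SE 0.12) that was 0.09 and 0.08 within the numbers. Ndufv3 stood at 328.5 and 442.0 FPKM and at 338.3 and 478.4 FPKM. For it the spread between numbers exceeded that between populations, and its difference of 0.08 had an SE of 0.24. Ndufa12, with 88.1 and 71.9 FPKM and 86.6 and 60.5 FPKM, was the member of this module below 0, at -0.14 (SE 0.22), and its interval reached lowest of all, from -0.73 to 0.46.

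The 8 genes tested of the proximal membrane arm had a median of 0.02, 4 above 0 and 4 below. Ndufa3 stood at 392.0 and 367.2 FPKM in CCR7hiCD137lo, against 338.7 and 345.0 FPKM in CCR7loCD137hi. It was the most negative member at -0.15 (SE 0.11, adjusted p = 0.771), lower in number 1 by 0.21 and in number 2 by 0.09 on the log2 scale. Ndufa8, with 108.3 and 108.6 FPKM and 111.4 and 92.5 FPKM, was at -0.09 (SE 0.14), the low value lying in CCR7loCD137hi library 2. Ndufc2 stood at 103.2 and 91.9 FPKM and at 98.4 and 85.9 FPKM, a difference of -0.08 (SE 0.14), with CCR7loCD137hi the lower within each number. Ndufa11, the lowest of the genes tested, stood at 12.9 and 12.0 FPKM and at 14.7 and 12.1 FPKM, a difference of 0.09 (SE 0.15).

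The 10 distal membrane arm genes had a median of 0.08, with 8 above 0. Ndufb8 stood at 161.7 and 153.8 FPKM in CCR7hiCD137lo, against 184.4 and 177.0 FPKM in CCR7loCD137hi. The libraries of a population lay close together, and the difference was 0.19 (SE 0.11, adjusted p = 0.729), 0.19 within number 1 and 0.20 within number 2. Ndufb9, a further partner of acyl carrier protein, stood at 111.3 and 110.7 FPKM and at 119.2 and 128.8 FPKM, 0.16 higher (SE 0.11). Ndufb4, with 36.8 and 31.6 FPKM and 33.6 and 29.3 FPKM, was at -0.12 (SE 0.15), which leaving out 1 library moved between -0.22 and -0.01. Ndufb10, with 106.5 and 102.1 FPKM and 112.1 and 87.0 FPKM, was at -0.08 (SE 0.16), being above its counterpart in number 1 and below it in number 2.

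Outside the modules stand Ndufab1, the mitochondrial acyl carrier protein, which also serves lipoic acid synthesis, and Ndufa4, first described in complex I and later assigned to complex IV. Ndufab1 stood at 35.4 and 37.3 FPKM in CCR7hiCD137lo, against 37.2 and 35.3 FPKM in CCR7loCD137hi, and its difference was 0.00 (SE 0.12). Ndufa4 stood at 294.7 and 214.0 FPKM and at 319.1 and 216.2 FPKM. Both libraries numbered 1 were far above both numbered 2, and its difference of 0.06 had the highest SE of the list, 0.26. With the replicate number as a term, the SEs of Ndufa4, Ndufv3 and Ndufa12 were 0.07, 0.07 and 0.09. Whether a number pairs libraries is not in the labels. The paralogue Ndufa4l2, a hypoxia-induced gene outside the rule, had 0.113 and 0.208 FPKM in the CCR7loCD137hi libraries and is listed at 0 in the others. These values lie below the 0.257 and 0.474 FPKM that 3 fragments on a transcript of 1 kb would give there. No difference between the populations is read from them.

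A further 13 genes tested had means from 55.1 FPKM in Ndufa13, a proximal arm subunit, to 146.3 FPKM in Ndufb7, a distal arm subunit. Their differences ran from 0.00 to 0.14, 11 above 0 and 2 below, with SEs up to 0.23. Among the 22 genes tested that are described above with the value of every library, leaving out 1 library changed the sign in 11: Ndufv1, Ndufs1 and Ndufs8 of the core, and Ndufv3, Ndufa12, Ndufa8, Ndufc2, Ndufa11, Ndufb10, Ndufab1 and Ndufa4.

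Compared within replicate numbers, 20 of the 36 genes were higher in CCR7loCD137hi in both (all genes 33%), 5 were lower in both (all genes 35.9%) and 11 differed in direction. With the BC002163 entry read for Ndufs5, 20 of 37 were higher in both and 6 lower. The median was 0.08 within number 1, where all genes had 0.01, and 0.01 within number 2, where all genes had -0.04. After quantile normalization the median within number 1 was 0.02, where all genes had -0.05. The 5 lower in both were Ndufa3, Ndufa12, Ndufb4, Ndufc2 and Ndufs8. Across the 36 genes, Pearson's r between the differences of the numbers was 0.31 and Spearman's rho 0.35, against 0.23 and 0.55 across all genes; genes share their libraries and are not replicates. Counting error alone, from fragments estimated with an assumed length of 200 bases, gave a median SD of 0.07 for a difference within number 1 and 0.10 within number 2. Of the 36, 8 differed by more than 2 such SDs within number 1 and 7 within number 2. These counts were not made over all genes, so they show nothing particular to complex I.

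Differences between the replicate numbers were larger than those between the populations for 21 of the 36 genes (58.3%; all genes 56.1%). In a limma fit with population as a term, 0 of the 36 genes were called between numbers (all genes 0.0381%) and 10 had an unadjusted p under 0.05 (all genes 28.7%). The median was -0.12 for number 2 minus number 1, where all genes had 0.06. It was -0.11 within CCR7hiCD137lo and -0.15 within CCR7loCD137hi. In both populations 20 genes were lower in number 2 (all genes 29.4%) and 4 were higher (all genes 44.7%). Both libraries numbered 2 lay below both numbered 1 for 17 genes (all genes 19.8%) and above them for 3 (all genes 30.5%). The complex I median thus lay on the other side of 0 from that of all genes, but after quantile normalization both were below 0, at -0.08 and -0.01. After centring on the library median they were -0.18 and 0.0033, so these scalings moved the complex I median in opposite directions. Whether the numbers mark a batch, a mouse or a culture is not in the labels.

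Ndufa4 and Ndufv3 were the ends of that range. Ndufa4 differed by -0.51 between numbers (SE 0.07, adjusted p = 0.0903), and Ndufv3 by 0.46 (SE 0.07, adjusted p = 0.0921). Next were Ndufa5, a peripheral arm subunit picked out here after its values were seen, with 74.9 and 57.7 FPKM in CCR7hiCD137lo and 78.4 and 56.4 FPKM in CCR7loCD137hi, at -0.42 (adjusted p = 0.0951), and Ndufa12 at -0.40 (adjusted p = 0.109). In each of these genes the sign was the same in both populations. Summed over all members, FPKM in number 2 differed from that in number 1 by -3.55% in CCR7hiCD137lo and by -5.25% in CCR7loCD137hi. Across the 36 genes Pearson's r between the differences in the populations was 0.74 and Spearman's rho 0.65, against 0.21 and 0.64 across all genes.

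**Figure D3:**
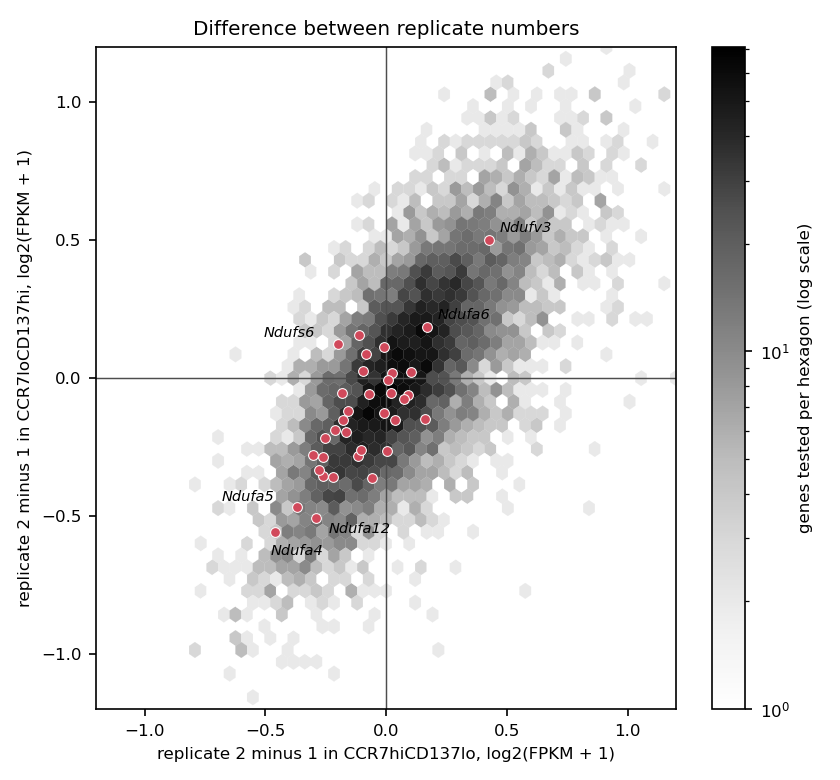
Replicate 2 minus replicate 1 on the log2(FPKM + 1) scale in CCR7hiCD137lo (x axis) and in CCR7loCD137hi (y axis); red points are 35 of the 36 complex I genes and grey hexagons count all genes tested on a log scale, within 1.2 of 0. Of the red points 19 lie in the lower left and 4, Ndufv3 the farthest, in the upper right.

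Of the 7 genes with AAGATGGC at the start codon, 6 had a fitted difference between numbers within 0.1 of 0 (all genes 26.9%), Ndufa9 at -0.24 being the exception, and the median was -0.03. In Ndufs6 and Ndufs7 that value averages opposite differences in the populations, -0.20 in CCR7hiCD137lo with 0.12 in CCR7loCD137hi, and -0.11 with 0.16. The signs were also opposite in Ndufa3, -0.09 with 0.03, and in Ndufc1, 0.01 with -0.01. Among the 25 other genes tested that had a promoter in the table, 8 lay within 0.1, 15 below and 2 above, with a median of -0.14. Between the populations the medians were 0.09 and 0.06. This split was looked at after the values were known, and it has no test.

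The other complexes of the respiratory chain were set beside complex I, and 0 of their genes were called between the populations. Complex II, succinate dehydrogenase, had 2 of 4 genes above 0 and a median of 0.03. Sdhb, its iron-sulfur subunit, stood at 124.4 and 114.6 FPKM in CCR7hiCD137lo, against 140.0 and 115.0 FPKM in CCR7loCD137hi, and Sdhd, a membrane anchor, differed by 0.10 (SE 0.15). Complex III, which takes electrons from ubiquinol, had 6 of 9 above 0 and a median of 0.09; its most abundant transcripts, Uqcrh and Uqcr10, differed by 0.04 (SE 0.11) and -0.08 (SE 0.11). Complex IV, cytochrome c oxidase, had 8 of 10 above 0 and a median of 0.09. Cox4i1 stood at 439.6 and 435.3 FPKM and at 542.2 and 508.7 FPKM, a difference of 0.26 (SE 0.11, adjusted p = 0.640), and Cox6a1 differed by 0.15 (SE 0.11). ATP synthase had 8 of 15 above 0 and a median of 0.01, with Atp5b at 0.11 (SE 0.18) and Atp5e at -0.05 (SE 0.12).

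All 5 complexes had a negative median between numbers: -0.12 in complex I, -0.20 in II, -0.21 in III, -0.10 in IV and -0.15 in ATP synthase. Complex I shared this sign with the others, and no test of a difference between complexes was made.

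Genes that build or feed complex I were also counted, with no test between the lists. Of 19 assembly factors listed 11 were matched in the files and tested, and 1 lay above 0 and 10 below between the populations (all genes 47.9% above), with a median of -0.17, and 6 were lower in CCR7loCD137hi within both numbers (all genes 35.9%). Ecsit stood at 18.0 and 15.0 FPKM in CCR7hiCD137lo, against 18.5 and 12.8 FPKM in CCR7loCD137hi, a difference of -0.09 (SE 0.22). Tmem70, which serves assembly of ATP synthase as well, stood at 15.1 and 17.4 FPKM and at 15.2 and 15.1 FPKM, also at -0.09 (SE 0.14). These factors were expressed below most subunits, and 0 of the 11 were called. Among 21 genes of the NADH shuttles and of coenzyme Q synthesis or use, 15 lay above 0, with a median of 0.06. Mdh2 and Mdh1, the malate dehydrogenases of the mitochondrion and cytosol, differed by 0.11 (SE 0.20) and 0.06 (SE 0.12).

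The largest difference in that list, picked out after its values were seen, was in Gpd2, the mitochondrial glycerol-3-phosphate dehydrogenase, which passes electrons to ubiquinone without complex I. It stood at 3.37 and 3.87 FPKM in CCR7hiCD137lo, against 8.08 and 6.73 FPKM in CCR7loCD137hi. Both CCR7loCD137hi libraries were above both others, and the difference of 0.86 (SE 0.17) did not pass the test (adjusted p = 0.384). Of the 21 genes in that list, 6 lay above in this way (all genes 16.6%). In 2, both CCR7loCD137hi libraries lay below both others (all genes 21.5%). These were Coq2 at -0.34 (SE 0.13) and Slc25a12 at -0.34 (SE 0.14). Regulators of respiratory genes had 4 of 12 above 0 and a median of -0.15. Both CCR7loCD137hi libraries were below both others in 6 (all genes 21.5%) and above them in 1 (all genes 16.6%). Within both numbers 7 were lower in CCR7loCD137hi (all genes 35.9%) and 2 higher (all genes 33%). The 2 most expressed regulators, Myc and Yy1, were both above 0. Myc stood at 81.5 and 121.6 FPKM and at 116.5 and 157.7 FPKM (difference 0.44, SE 0.26), and Yy1 at 33.8 and 33.2 FPKM and at 33.1 and 38.0 FPKM (difference 0.08, SE 0.13). The coactivator gene Ppargc1a was listed at 0 in every library.

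**Figure D4:**
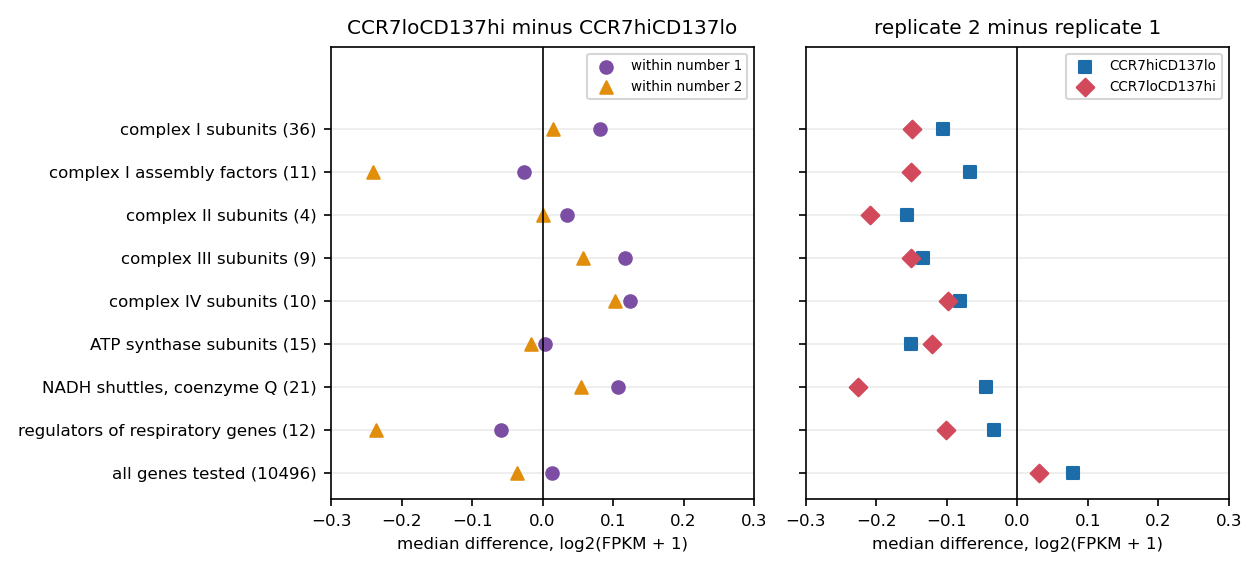
Median difference on the log2(FPKM + 1) scale for complex I and 7 related lists, with the number of genes tested in brackets, and for all genes: left, CCR7loCD137hi minus CCR7hiCD137lo within replicate numbers 1 and 2; right, replicate 2 minus replicate 1 within each population. Complex I lies at 0.08 and 0.01 on the left and at -0.11 and -0.15 on the right, where every list is below 0 and all genes are above it.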

How the data were processed

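RNA of 4 libraries, 2 per population, was measured; per the labels' protocols it was extracted with TRIzol and prepared with a TruSeq Stranded mRNA kit. Each library has a table of FPKM per gene, computed and deposited by the authors, whose columns are those of Cufflinks output, per the file headers. The submitters' processing notes name build mm10, Cufflinks 2.0.2, TopHat 1.3.2 and Bowtie 0.12.8. Annotation, filters and use of strand are not stated in those sources. Where a symbol had several entries (240 symbols), that with the highest mean was kept. File coordinates are printed with 1 added to the start.

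Genes with a mean of at least 1 FPKM (10496) were compared by limma (3.58.1, in R 4.3.3) on log2(FPKM + 1) values (variance trend, two-sided, Benjamini-Hochberg adjustment). The fit was checked on simulated data whose planted changes were larger than any seen in complex I genes. The simulation held no effect of the replicate number, and it does not bear on differences as small as those. A difference on this scale understates that of low genes. An exact permutation test of 2 against 2 cannot give a p under 0.333. Copies were sought with blastn 2.17.0 in GENCODE vM21 transcripts. Floors and counting errors rest on estimated depth and cover counting only: 3 fragments on a transcript of 1 kb would be 0.145, 0.230, 0.257 and 0.474 FPKM in CCR7hiCD137lo libraries 1 and 2 and CCR7loCD137hi libraries 1 and 2.

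Members and lists were chosen with earlier results of these data known. The results of 1 member are counted with the rest but are not reported here. Values per library are given for the core subunits, the 6 most positive and 6 most negative members, the 3 highest and 3 lowest, Ndufab1 and Ndufa4. In other lists called genes and the 2 most expressed were to be named, and for some of these only the difference is given. Ndufa5, Gpd2, Coq2 and Slc25a12 were added after their values were seen. Alternatives were other pseudocounts, filters and scalings, no variance trend, the replicate number as a term, and each library left out.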

Additional observations from a re-analysis of the deposited data

How the results depend on the processing

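No complex I gene was called between the populations or between the numbers under any alternative run, and the lowest adjusted p of a named gene between the populations was 0.234. The median difference between populations, 0.07, ran from 0.0022 to 0.124 over the fits that each left out 1 library. After quantile normalization it was 0.0355, where the median of all genes went from -0.0122 to -0.0433. The median within number 1 moved to 0.0233 after quantile normalization, where that of all genes went from 0.0131 to -0.0462. The median within number 2, 0.0147, was 0.0233 after quantile normalization, where that of all genes went from -0.0363 to -0.0351. After centring on the library median it was 0.0435, where all genes had -0.0075. Under the other settings, 153 of 154 differences of the 22 named genes kept their direction; Ndufab1, at -0.0047, was 0.0026 after centring on the library median. Leaving out 1 library turned 18 of 88 differences, in 11 genes. These ran from -0.0415 to 0.2206 in Ndufa11, -0.39 to 0.1191 in Ndufa12, -0.215 to 0.3445 in Ndufa4, -0.2274 to 0.0386 in Ndufa8, -0.042 to 0.0325 in Ndufab1, -0.2588 to 0.1032 in Ndufb10, -0.1798 to 0.0142 in Ndufc2, -0.1643 to 0.195 in Ndufs1, -0.1717 to 0.1302 in Ndufs8, -0.0409 to 0.2458 in Ndufv1 and -0.1713 to 0.3276 in Ndufv3; the cause was not tested. The sign was kept in 11 genes, but the difference moved by over 1.5 times in 7 of them, between 0.074 and 0.2586 in Ndufa6, 0.0818 and 0.2328 in Ndufa7, -0.222 and -0.0114 in Ndufb4, 0.102 and 0.2129 in Ndufb9, 0.0512 and 0.2347 in Ndufs3, 0.0658 and 0.2232 in Ndufs7, and 0.0109 and 0.1389 in Ndufv2. In these fits the lone library of a population is assumed to vary like the other population. Of complex I genes higher in CCR7loCD137hi within both numbers, 14 were found after quantile normalization in place of 20. The share of all genes went from 32.97% to 28.69%.

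With the replicate number as a block the count of complex I genes called stayed 0 (lowest adjusted p 0.234, Ndufb8), where calls over all genes went from 6 to 42. The labels do not say that a number pairs libraries. Across all genes, deviations of same-numbered libraries had a Pearson's r of 0.21 and a Spearman's rho of 0.64. Depth limits the lowest values most: the fewest estimated fragments of a complex I gene tested were 26, for Ndufa11 in CCR7loCD137hi library 2, where the counting SD of its difference within number 2 was 0.34.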
